A study of Elaeis guineensis with 9 samples.

Results

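Abundant non-coding transcripts of oil palm leaves were followed across populations and oil-yield classes. Members were the rows of the deposited transcript table whose RefSeq accession begins with XR_, the prefix of predicted non-coding transcript models, and whose mean over the 9 libraries was at least 50 TPM. TPM is a length-corrected share of all transcripts in a library, scaled so that each library sums to 1000000. The rule kept 80 of 51490 transcript rows, all of them among the 8025 non-coding rows. The level itself chose the members, so the height of their levels is a description and was not tested.

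The leaves came from the African oil palm, Elaeis guineensis, of the Tenera cultivar, the thin-shelled hybrid fruit form grown for palm oil. All palms were 7 years old, stood in 1 field and had 4 years of yield records, and tissue was taken from frond 17. The 9 libraries held 1 library for each combination of the populations Deli x SP540, Deli x Yangambi and Deli x LaMe, named here by their second parent, with the classes low, medium and high yield, so that each population and each yield class had 3 libraries. Whether a library held 1 palm or a pool is not in the labels, which name no batch either. With 1 library per combination, p-values measure the spread of these libraries around additive effects of population and yield, and not between replicates. A yield effect that differs by population adds to that spread.

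RNA that is not translated spans several kinds. Ribosomal RNA forms the core of the ribosome and is the bulk of the RNA of a cell, and small nucleolar RNAs guide chemical modification of ribosomal RNA in the nucleolus. Long non-coding RNAs are transcribed and often spliced and polyadenylated like mRNA; some regulate neighbouring genes or bind microRNAs, while for most plant ones no role is known. Non-coding variants of protein-coding genes carry the exons of a gene without a usable reading frame.

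A table of reference genes paired 47 of the 80 members with a gene, by accession without version. Only 1 of the 47 had the same accession version there, so the paired models may differ from those quantified. Of the 47 members, 34 belonged to genes classed as long non-coding RNA and 7 to protein-coding genes. Another 3 belonged to ribosomal RNA genes, 2 to genes of the miscellaneous RNA class and 1 to a small nucleolar RNA gene. The other 33 were not paired and are given by accession only. The name non-coding thus describes the transcript model and not always the gene. No gene in the whole reference table carried a symbol searched for as that of a conserved plant non-coding RNA. Names could therefore not show whether any member is one, and no function is given to any single long non-coding member.

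As a check of the tissue label, the catalase gene CAT2, an enzyme of leaf peroxisomes, lay between 3458 and 7189 TPM in all 9 libraries, while 8 flower and embryo genes each stayed at or under 0.735 TPM. It was the only gene of the 10 on the leaf list that the table names. A TPM table keeps no sequencing depth, so depth is unknown and no counting interval can be given. In bulk leaf tissue, fewer cells of a type and less RNA per cell cannot be told apart. Among members, high-yield LaMe stood apart in ribosomal RNA, and medium-yield Yangambi in XR_003801436.1 and XR_832613.2. Low-yield Yangambi held the lowest or highest value of 4 members, with a wide gap on the log2 scale to the other 8 libraries. Such gaps were flagged in 6 of the 80 members, and chance alone flags some. The 4 members therefore do not show that low-yield Yangambi stood apart.

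The members held between 3.82% of all TPM in low-yield Yangambi and 5.10% in high-yield LaMe. All non-coding rows together held 5.60 to 6.68%, so these 80 rows made up 65.1 to 76.4% of the non-coding TPM of a library. At the other end, 1416 non-coding rows were listed at 0 in all 9 libraries. A single transcript led: XR_003800762.1, which has no paired gene, averaged 22968 ± 2727 TPM (SD, n = 9) and alone held 48.1 to 59.4% of the members' TPM. It had rank 3 among all rows of the table.

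That leading transcript had 27368, 19457 and 21739.9 TPM in low-, medium- and high-yield SP540, 18789, 24808 and 24512 TPM in Yangambi, and 22260.1, 23238 and 24542 TPM in LaMe. Population ranges overlapped throughout and so did yield classes. Its log2 difference was -0.04 (SE 0.170) between SP540 and LaMe and 0.06 (SE 0.170) between high and low yield. The transcript with the largest share of the members' TPM thus showed population and yield differences smaller than their own errors.

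**Figure D1:**
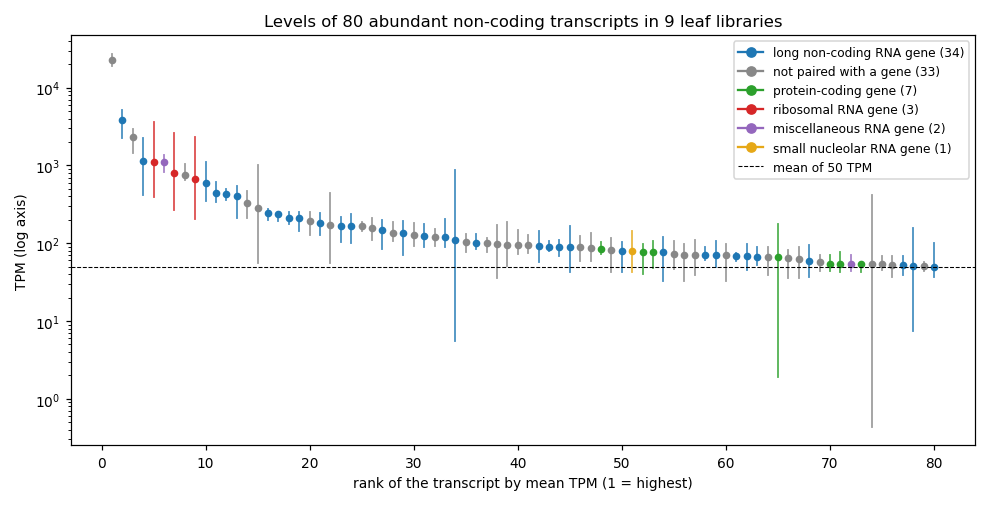
Level of each of the 80 members. The horizontal axis is the rank by mean TPM, the vertical axis is TPM on a log scale, points are means over 9 libraries, bars run from the lowest to the highest library, colours give the class of the gene, and the dashed line marks a mean of 50 TPM. XR_003800762.1 stands alone at 22968 TPM, and the bars of a few members, such as XR_832613.2, reach far below the line.

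Below it the levels fell off steeply, as the plot of levels by rank shows. Only 6 members had a mean of 1000 TPM or more, 31 lay between 100 and 1000, and 43 between 50 and 100. The median of the 80 means was 94.6 TPM. The long non-coding RNA gene LOC105040332 (XR_831097.3) was second at 3843 ± 905 TPM (SD, n = 9). XR_002165916.2, not paired, followed at 2301 ± 486 TPM, and LOC105054935 (XR_833650.3), another long non-coding RNA gene, at 1130.1 ± 537 TPM.

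The other members of the leading 12 covered most classes. The 3 ribosomal RNA transcripts averaged 1100.0, 796 and 671 TPM. LOC105042451 (XR_003800501.1), of the miscellaneous RNA class, was at 1093 ± 199 TPM (SD, n = 9), and the unpaired XR_002166155.2 at 764 ± 134 TPM. The remaining 3 were the long non-coding RNA genes LOC114914837 (XR_003802690.1) at 599.9 ± 229 TPM, LOC105040253 (XR_831081.1) at 448 ± 101 TPM and LOC105032036 (XR_829721.3) at 430.4 ± 48.8 TPM.

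Close to the minimum, the lowest members were XR_003799745.1 at 51.3 TPM, XR_833272.3 at 51.2 TPM and XR_832246.3 at 50.1 TPM. The nearest rows left out were XR_834017.3 at 49.2 TPM, XR_002163372.2 at 49.0 TPM and XR_829852.3 at 48.9 TPM. The edge of the list is therefore a matter of about 1 TPM.

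Not every member was abundant everywhere. In all 9 libraries, 48 of the 80 reached 50 TPM. Without their highest library, 4 members would have a mean under 50 TPM: XR_003801436.1, XR_832613.2, XR_003799745.1 and XR_832246.3. The mean of the 2 lower populations was under 50 TPM for 9 members, and such members could enter the list through 1 population. All 80 passed the filter on low values.

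Members varied more between libraries than abundant mRNAs did. The coefficient of variation (SD over mean, 9 libraries) had a median of 23.4% over the members and 15.5% over the 3069 mRNA rows with a mean of at least 50 TPM. It was over 50% in 9 members (11.25%), against 3.91% of those mRNA rows, and under 20% in 29 members (36.25%), against 69.2%. The ratio of a large SD to a mean is bound up with the rule, since a row can reach a mean of 50 TPM through 1 high library. The same minimum chose these mRNA rows, so this holds for both sets. What lies behind the difference between the sets was not tested.

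The steadiest member was the unpaired XR_830753.3, with 158, 146 and 163 TPM in low-, medium- and high-yield SP540, 173, 185 and 173 TPM in Yangambi, and 171, 163 and 164 TPM in LaMe, a coefficient of variation of 6.75%. LOC105038430 (XR_002163869.1), a long non-coding RNA gene, followed at 7.80%, with 234 to 254 TPM in 8 libraries and 192 TPM in low-yield Yangambi. The next 3 were XR_002165717.2 of the protein-coding gene LOC105054448 (9.25%), the unpaired XR_833272.3 (9.35%) and the long non-coding RNA gene LOC105047608 (XR_002164924.2, 9.64%). These 5 kept within a narrow band, but populations could still differ inside it. Population took up 91.0% of the log2 variance of XR_002164924.2, 82.3% of XR_833272.3 and 70.9% of XR_830753.3. The share was 26.2% for XR_002163869.1 and 17.0% for XR_002165717.2. At the other end stood XR_003801436.1 at 254%, XR_832613.2 at 252%, XR_003799624.1 at 104%, and the ribosomal RNA transcripts XR_003799445.1 at 98.7% and XR_003799444.1 at 94.7%.

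**Figure D2:**
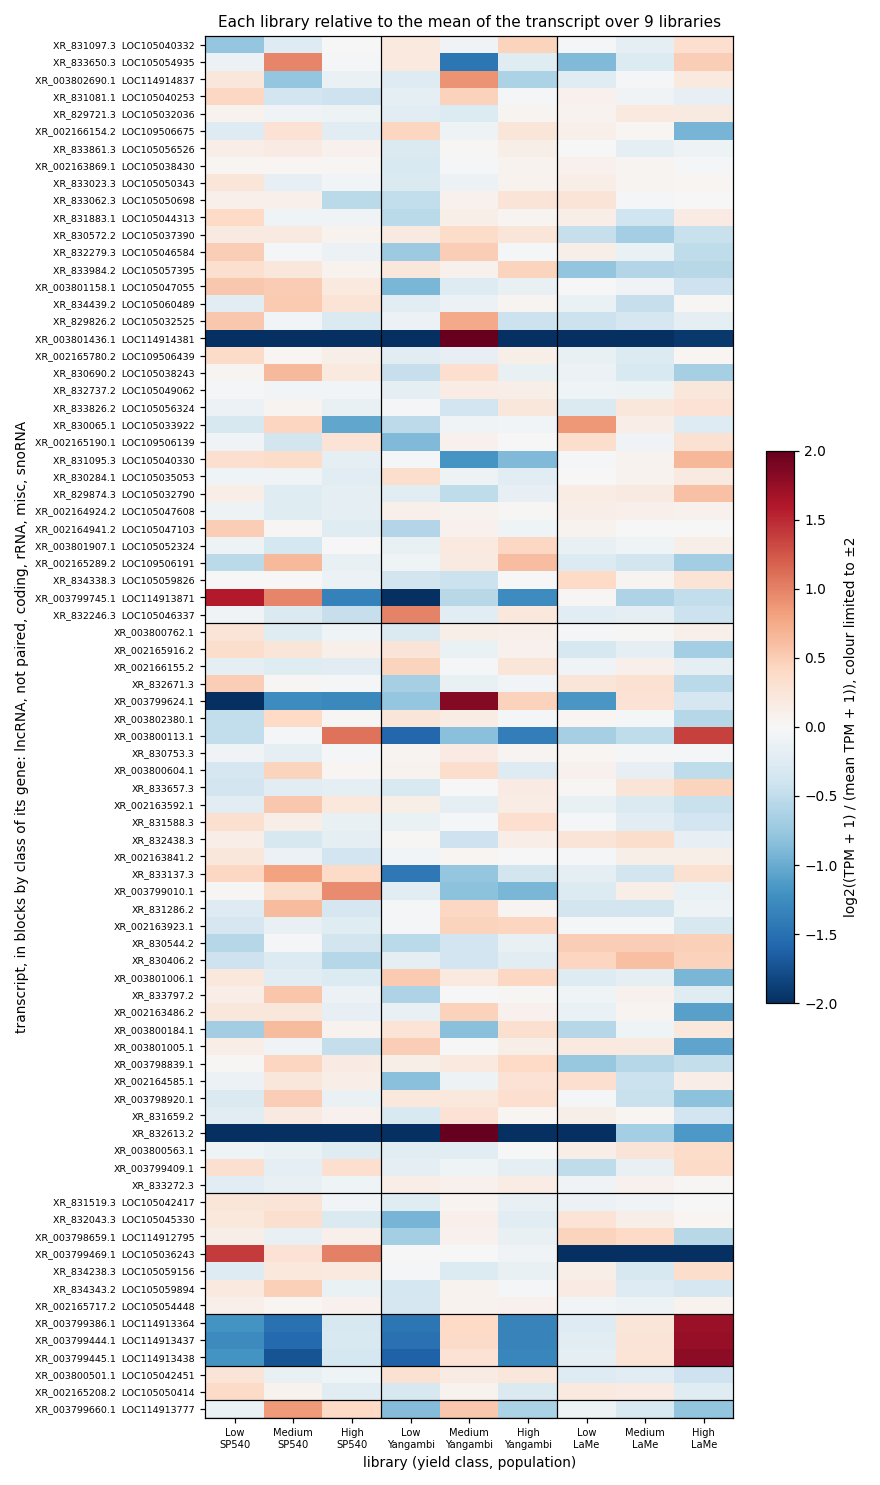
Members by library. Each cell is log2 of (TPM + 1) over (mean TPM of that transcript + 1), with red above and blue below the mean and the colour limited to ±2, columns are libraries by population and yield class, and rows are grouped by class of gene. The 3 ribosomal RNA transcripts are reddest in high-yield LaMe, XR_003799469.1 is blue in all LaMe libraries, and most other cells are pale.

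Among the structural RNAs, the ribosomal RNA transcripts kept near-constant ratios to each other. The protocols name an mRNA library kit, so the TPM of structural RNAs is their share of such a library. That share need not follow their level in the leaf. LOC114913364 (XR_003799386.1) had 478, 390.3 and 878 TPM in low-, medium- and high-yield SP540, 402, 1448 and 433 TPM in Yangambi, and 918, 1298 and 3654 TPM in LaMe. Its highest library, high-yield LaMe, was 9.36 times its lowest, medium-yield SP540. LOC114913437 (XR_003799444.1) had the same order of libraries, with 328, 269.9 and 642 TPM in SP540, 283, 1034 and 316 TPM in Yangambi, and 688, 952 and 2652 TPM in LaMe.

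LOC114913438 (XR_003799445.1) was lowest in medium-yield SP540, at 202 TPM, and highest in high-yield LaMe, at 2319 TPM. The level of XR_003799386.1 over that of XR_003799444.1 stayed between 1.33 and 1.46 in all 9 libraries, and that of XR_003799386.1 over XR_003799445.1 between 1.57 and 1.93, while each of the 3 levels spanned 9.36 to 11.5 times. Ribosomal RNA genes can occur in near-identical copies, and kallisto, named in the submitters' processing notes, divides reads that fit several rows by estimation. Whether these 3 rows share sequence was not checked, so the split among them may be uncertain. Their sum is given beside the single levels. The sum was 1099, 862 and 2045 TPM in low-, medium- and high-yield SP540, 903, 3307 and 1019 TPM in Yangambi, and 2190.4, 3057 and 8625 TPM in LaMe.

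These 3 rows carried nearly all TPM of the rows paired with ribosomal RNA genes. The 75 such rows summed to 881 to 8686 TPM per library. Rows without a paired gene have no class, so any structural RNA among them is not in such sums. In each of the 3, all SP540 libraries were under all LaMe libraries, whereas Yangambi overlapped SP540 through its low- and high-yield libraries and LaMe through its medium-yield library. The log2 difference between SP540 and LaMe was -1.58 (SE 0.583), -1.64 (SE 0.578) and -1.71 (SE 0.591) in the order above, and limma called none of them (adjusted p = 0.432, 0.412 and 0.406). Between Yangambi and LaMe the differences were -1.37, -1.41 and -1.49 (adjusted p = 0.368, 0.348 and 0.331). Between high and low yield they were 0.99, 1.02 and 1.04, also not called, each with an adjusted p of 0.987. Without the high-yield LaMe library the differences were -1.03, -1.13 and -1.20 between SP540 and LaMe, -0.82, -0.89 and -0.99 between Yangambi and LaMe, and 0.45, 0.51 and 0.53 between high and low yield. Without the medium-yield Yangambi library those between Yangambi and LaMe were -2.17, -2.22 and -2.33 (adjusted p = 0.151, 0.134 and 0.119), also not called.

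Small nucleolar RNA did not follow ribosomal RNA. Its 624 paired rows summed to 1069.8, 1397 and 1099.8 TPM in low-, medium- and high-yield SP540, 1063, 1053 and 903 TPM in Yangambi, and 888, 893 and 541 TPM in LaMe. The lowest sum stood in high-yield LaMe, where ribosomal RNA was highest. The one member of that class, LOC114913777 (XR_003799660.1), had 71.8, 142 and 104 TPM in SP540, 42.6, 115 and 50.3 TPM in Yangambi, and 73.2, 63.7 and 45.1 TPM in LaMe. Populations overlapped for this transcript. The 93 paired rows of small nuclear RNA, the RNA of the spliceosome, summed to 85.3 to 275 TPM and gave no member.

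**Figure D3:**
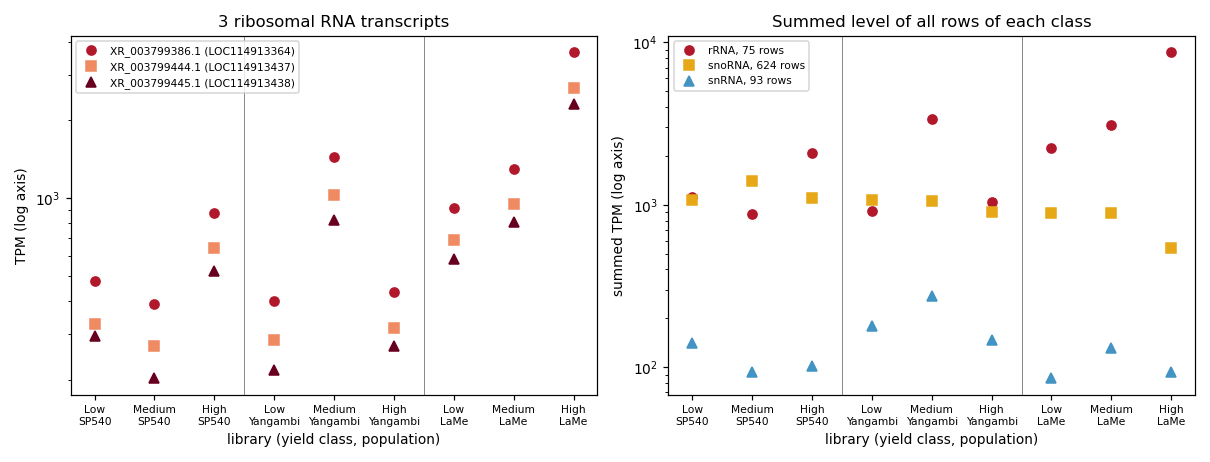
Ribosomal and other structural RNA by library. Left, TPM on a log axis of the 3 ribosomal RNA members, against yield class and population. Right, in the same way, summed TPM of all rows paired with ribosomal RNA, small nucleolar RNA and small nuclear RNA genes. The 3 members run in parallel, with high-yield LaMe highest at 2319 to 3654 TPM, and the small nucleolar RNA sum is lowest there at 541 TPM.

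The 34 long non-coding RNA members ranged from 50.1 to 3843 TPM on average, with a median of 116 TPM and a median coefficient of variation of 23.7%. Their sum was 9014 to 11277 TPM per library. XR_831097.3 led in every library, with 2239.7, 3209 and 3873 TPM in low-, medium- and high-yield SP540, 4397, 3645 and 5239 TPM in Yangambi, and 3779, 3349 and 4860.0 TPM in LaMe. High yield was its highest class in all 3 populations. XR_833650.3 had no such order, with 1037, 2231 and 1112 TPM in SP540, 1291, 414 and 956 TPM in Yangambi, and 613, 933 and 1584 TPM in LaMe. Its highest library was medium yield in SP540, low yield in Yangambi and high yield in LaMe.

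Neighbouring genes in the reference annotation gave a view of the surroundings of these transcripts. Of the 47 paired members, 44 had a protein-coding neighbour with rows in the table. For 21 long non-coding members both coding neighbours had rows, and in 5 of these both neighbours averaged under 5 TPM. Low levels are common in the table, where 18354 of the 51490 rows reached 5 TPM in at least 3 libraries. That count is of rows and not of genes, so the 5 are a description only. LOC105052324 (XR_003801907.1), at 66.5 TPM, lay between coding genes at 0.0108 and 0.0927 TPM. LOC105050698 (XR_833062.3), at 212 TPM, lay between a gene listed at 0 and one at 0.195 TPM. By contrast LOC105060489 (XR_834439.2), at 123 TPM, lay between genes at 116 and 223 TPM.

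Another gene of the annotation overlaps 5 members: XR_003799444.1, XR_003799660.1, XR_832737.2, XR_834238.3 and XR_834338.3. The overlap is of gene spans, and shared exons were not checked. Whether counting used the strand is not given in the sources used here either. Reads of such a member and of the gene it overlaps may therefore not be separable. The long non-coding RNA genes of XR_831097.3 and XR_831095.3 lie on either side of the same coding gene, LOC105040354. XR_831095.3 was far lower, at 76.4 ± 27.9 TPM (SD, n = 9).

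Non-coding variants of protein-coding genes made up 7 members, all between 54.4 and 85.5 TPM on average. For 3 of them, XR_831519.3 (LOC105042417), XR_003798659.1 (LOC114912795) and XR_003799469.1 (LOC105036243), no other row of the gene was paired. In the other 4 the share of the gene's TPM could be followed. XR_832043.3 held 73.6% of the TPM of LOC105045330 (57.7 to 92.6% by library), another non-coding row held 26.4%, and the mRNA row averaged 0.0330 TPM. XR_834238.3 held 76.4% of LOC105059156 (62.2 to 90.3%) and XR_834343.2 68.0% of LOC105059894 (52.0 to 78.1%). In XR_002165717.2 the mRNA row was the larger one, and the non-coding row held 37.3% of LOC105054448 (31.2 to 42.7%). In 3 of these 4 genes the non-coding model therefore took most of the gene's TPM, a share that rests on the estimated division of reads among overlapping models.

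Differences among populations were tested with limma on log2(TPM + 1), with additive terms for population and for yield and p-values adjusted over 30576 rows. A joint test for any population difference called 1 member, XR_003799469.1 (adjusted p = 0.00218). Among all rows tested, 0.327% were called. At an unadjusted p under 0.05 there were 23 of the 80 members, against 12.7% of all rows and 527 of 3068 abundant mRNA rows. Population took up a median of 35.6% of the log2 variance of a member, yield class 16.5% and the rest 37.99%. For mRNA rows of at least 50 TPM the medians were 34.7%, 14.7% and 42.1%, so members and abundant mRNAs divided their variance in nearly the same way.

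XR_003799469.1, the transcript of the protein-coding gene LOC105036243, was far lower in LaMe leaves than in the others. It had 176, 80.2 and 133 TPM in low-, medium- and high-yield SP540, 65.8, 66.4 and 62.7 TPM in Yangambi, and 1.90, 2.09 and 3.76 TPM in LaMe. The 3 populations did not overlap. Means were 129.6 ± 47.8 TPM in SP540, 64.97 ± 1.95 TPM in Yangambi and 2.59 ± 1.02 TPM in LaMe (SD, n = 3 each). The row entered the list through the populations where it was high.

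Its log2 difference was 4.24 between Yangambi and LaMe (SE 0.274, adjusted p = 0.00265, higher in 3 of 3 matched pairs) and 5.15 between SP540 and LaMe (SE 0.274, adjusted p = 0.00115, higher in 3 of 3). Both comparisons share the LaMe libraries. Between SP540 and Yangambi it was 0.91 (SE 0.274, adjusted p = 0.409) and was not called, although the 6 libraries did not overlap. The reference table names no product for the gene.

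The coding gene next to it in the reference annotation, LOC105036773, had the same order of populations, with smaller differences from LaMe. Its level was 119.03, 85.7 and 92.3 TPM in low-, medium- and high-yield SP540, 36.7, 35.02 and 36.9 TPM in Yangambi, and 13.04, 12.4 and 17.9 TPM in LaMe. The log2 difference was 1.28 between Yangambi and LaMe (SE 0.170, adjusted p = 0.0412) and 2.70 between SP540 and LaMe (SE 0.170, adjusted p = 0.00222). Between SP540 and Yangambi it was 1.41 (SE 0.170, adjusted p = 0.0942), not called and larger than the 0.91 of XR_003799469.1. The coding gene on the other side, LOC105034598, averaged 7.41 TPM with differences of -0.27 and 0.96, neither called (adjusted p = 0.758 and 0.380). The neighbour was chosen for its position, but its values were seen together with those of the member.

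**Figure D4:**
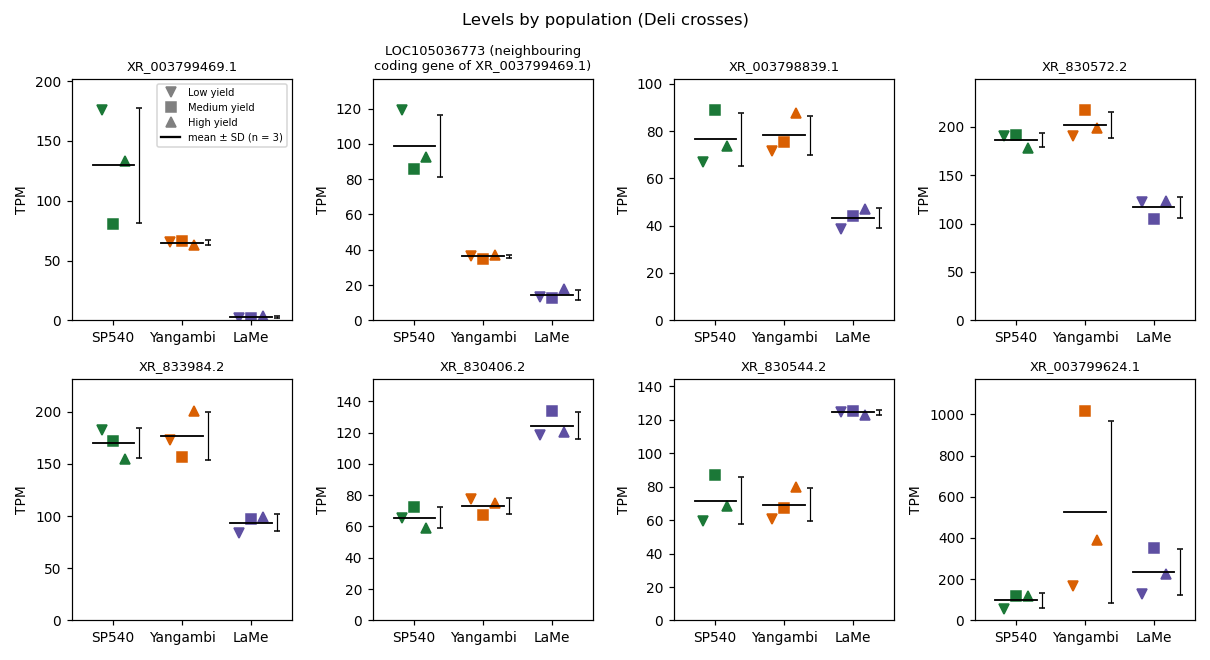
Levels by population of 7 members and of LOC105036773, the coding neighbour of XR_003799469.1. Vertical axes are TPM from 0, symbols give the yield class, horizontal lines the mean and bars beside them the SD (n = 3). XR_003799469.1 is at 1.90 to 3.76 TPM in LaMe and at 62.7 TPM or more elsewhere, and for the 5 members named as close to the threshold all LaMe libraries lie outside the range of the other 6.

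Between Yangambi and LaMe, 1 member of 80 was called, against 0.383% of all rows (62 higher and 55 lower in Yangambi), and 22 members had an unadjusted p under 0.05, against 13.8% of all rows and 19.2% of abundant mRNA rows. Groups did not overlap in 19 members, 23.75%, against 21% of all rows and 29.3% of abundant mRNA rows; 12 were higher in Yangambi, against 11.4% of all rows, and 7 lower, against 9.68%. Between SP540 and LaMe, 1 member was called, against 0.242% of all rows, and 21 had an unadjusted p under 0.05, against 10.1% of all rows and 11.2% of abundant mRNA rows. Groups did not overlap in 26 members, 32.5%, against 16.9% of all rows and 19.2% of abundant mRNA rows. Of these 11 were higher in SP540, 13.75% of members against 11.2% of all rows and 10.9% of abundant mRNA rows. The other 15 were lower, 18.75% against 5.72% and 8.38%. Both these 15 and the 21 above include the 3 ribosomal RNA transcripts, whose near-constant ratios make them no separate signs. The median log2 difference of the members was -0.01 and 0.07 in these comparisons, beside 0.02 and 0.08 over all rows, with 40 and 44 of the 80 members above 0.

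A set of 5 members came close to the threshold in a comparison with LaMe, or in both, without passing it. Of these, XR_830572.2 and XR_833984.2 were named after their values were seen. XR_003798839.1, not paired, had 66.8, 88.8 and 73.9 TPM in low-, medium- and high-yield SP540, 71.8, 75.3 and 87.6 TPM in Yangambi, and 38.8, 43.97 and 46.9 TPM in LaMe. Its log2 difference was 0.84 between Yangambi and LaMe (SE 0.130, adjusted p = 0.0603) and 0.80 between SP540 and LaMe (adjusted p = 0.0845). All LaMe libraries were under all others.

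The long non-coding RNA gene LOC105037390 (XR_830572.2) had 190.2, 191 and 178 TPM in SP540, 191, 217 and 199 TPM in Yangambi, and 123, 104 and 123 TPM in LaMe, with differences of 0.79 (SE 0.124, adjusted p = 0.0620) for Yangambi and 0.67 (adjusted p = 0.128) for SP540. LOC105057395 (XR_833984.2), also a long non-coding RNA gene, had 183, 172 and 155 TPM in SP540, 173, 156 and 201 TPM in Yangambi, and 84.02, 97.4 and 99.5 TPM in LaMe, with differences of 0.90 (SE 0.145, adjusted p = 0.0654) and 0.85 (adjusted p = 0.101). In both, LaMe again lay below both other populations without overlap.

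A pair of unpaired transcripts ran the other way. XR_830406.2 had 65.3, 72.4 and 58.96 TPM in SP540, 77.3, 67.3 and 74.8 TPM in Yangambi, and 119, 134 and 121 TPM in LaMe. Its difference was -0.92 between SP540 and LaMe (SE 0.129, adjusted p = 0.0528) and -0.76 between Yangambi and LaMe (adjusted p = 0.0758). XR_830544.2 had 59.2, 87.1 and 68.7 TPM in SP540, 60.7, 67.4 and 79.9 TPM in Yangambi, and 125, 126 and 123 TPM in LaMe, with differences of -0.81 (SE 0.152, adjusted p = 0.136) and -0.84 (adjusted p = 0.0849). Its 3 LaMe libraries lay within 3 TPM of each other and above the other 6.

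Abundant members with smaller differences included XR_002165916.2, at 2701 ± 238 TPM in SP540, 2433 ± 329.7 TPM in Yangambi and 1769 ± 296 TPM in LaMe (SD, n = 3 each). No SP540 or Yangambi library was as low as any LaMe library, and the adjusted p was 0.214 and 0.240. LOC105042451 (XR_003800501.1) averaged 1109 ± 179, 1284 ± 66.9 and 887 ± 59.1 TPM in SP540, Yangambi and LaMe, with a difference of 0.53 between Yangambi and LaMe (SE 0.119, adjusted p = 0.137). These gaps were wider than the spread within LaMe but did not pass after adjustment.

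Between SP540 and Yangambi, no member was called, against 0.00327% of all rows, and 14 members had an unadjusted p under 0.05 by limma, against 9.54% of all rows and 14.2% of abundant mRNA rows. Groups did not overlap in 12 members, 6 higher and 6 lower, against 14.9% of all rows and 18.7% of abundant mRNA rows. XR_003799624.1, not paired, had the smallest p, with 97.3 ± 35.4 TPM in SP540 and 526 ± 441 TPM in Yangambi (SD, n = 3 each) and a difference of -2.13 (SE 0.285, adjusted p = 0.109). XR_833137.3, not paired, had 131, 172 and 129 TPM in low-, medium- and high-yield SP540 and 35.9, 57.4 and 76.4 TPM in Yangambi, a difference of 1.39 (SE 0.248, adjusted p = 0.198). Its LaMe libraries, at 87.1, 75.8 and 122 TPM, lay under all SP540 libraries.

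The unpaired XR_003799010.1 had 97.5, 122 and 185 TPM in SP540 and 81.8, 54.01 and 50.3 TPM in Yangambi (difference 1.09, adjusted p = 0.354). XR_002163923.1 had 74.6, 84.6 and 79.8 TPM in SP540 and 92.9, 128 and 127 TPM in Yangambi (difference -0.52, adjusted p = 0.400). Groups did not overlap in either.

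Yield was compared next, across the 3 populations. No member was called between high and low, medium and low, or high and medium yield, and limma called 0% of all rows in each. At an unadjusted p under 0.05 there were 5, 3 and 3 members in that order, which is 6.25%, 3.75% and 3.75%. The shares were 4.66%, 3.47% and 4.4% of all rows and 3.65%, 2.35% and 3.32% of abundant mRNA rows. Groups did not overlap in 4, 1 and 4 members, which is 5%, 1.25% and 5%. The shares were 8.02%, 6.46% and 7.98% of all rows and 6.58%, 3.81% and 7.46% of abundant mRNA rows. A joint test for any yield difference called no member (0% of all rows). In it, 6 of the 80 members had an unadjusted p under 0.05, against 4.21% of all rows and 90 of 3068 abundant mRNA rows. Yield class took up over 50% of the log2 variance in 2 members (2.5%), against 5.8% of abundant mRNA rows. The shares of members rest on 1 to 5 members in each pairwise comparison. Against abundant mRNA rows, the unadjusted test leaned to more members and the separation of groups to fewer. From so few members no difference from either set is read. The additive fit sees only a yield difference that the populations share.

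The smallest p belonged to XR_003799624.1. It had 56.4, 119 and 116 TPM in low-, medium- and high-yield SP540, 167, 1018 and 393 TPM in Yangambi, and 127, 350.0 and 226 TPM in LaMe. In all 3 populations the low-yield library was the lowest and the medium-yield library the highest. The log2 difference was 1.71 between medium and low yield (SE 0.285, unadjusted p = 0.000539, adjusted p close to 1) and 1.03 between high and low yield (SE 0.285, unadjusted p = 0.00852, adjusted p = 0.987). Without the medium-yield Yangambi library the difference between medium and low yield was 1.31 (SE 0.186), also not called.

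The next smallest p of a higher member and the smallest p-values of lower members between high and low yield belonged to unpaired transcripts. XR_833657.3, not paired, had a mean of 153 ± 33.2 TPM for high-yield libraries and 119 ± 18.2 TPM for low-yield ones (SD, n = 3 each), a difference of 0.35 (SE 0.110, adjusted p = 0.987), higher in 3 of 3 populations. XR_003801005.1, not paired, averaged 53.02 ± 21.5 TPM at high yield and 85.7 ± 11.6 TPM at low yield (difference -0.75, SE 0.239), with no overlap. XR_003801006.1 averaged 72.1 ± 32.8 TPM at high yield and 92.2 ± 24.3 TPM at low yield (difference -0.42, SE 0.185). Without the high-yield LaMe library these differences were -0.44 for XR_003801005.1 and -0.22 for XR_003801006.1. None of the 3 transcripts passed the test.

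Between high and medium yield, XR_831097.3 averaged 4658 ± 705 TPM in the high-yield class against 3401 ± 223 TPM in the medium-yield class (SD, n = 3 each), with no overlap and a difference of 0.44 (SE 0.161, unadjusted p = 0.0283). XR_003800113.1, not paired, averaged 287 ± 197 TPM in the high-yield libraries and 126 ± 35.8 TPM in the medium-yield ones (difference 0.81, SE 0.414), its high-yield value being 359 TPM in SP540 and 438 TPM in LaMe but 64.2 TPM in Yangambi. XR_002163486.2, not paired, averaged 57.1 ± 22.1 TPM at high yield and 85.1 ± 12.02 TPM at medium yield (difference -0.64, SE 0.229), and the difference was -0.37 without the high-yield LaMe library. That of XR_003800113.1 was 0.36 without high-yield LaMe, 0.48 without medium-yield LaMe, 1.23 without medium-yield Yangambi and 1.43 without high-yield Yangambi. The adjusted p was 1 for all 3.

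Between medium and low yield, XR_003800501.1 averaged 1045 ± 156 TPM in medium-yield libraries, against 1193 ± 246 TPM in low-yield ones (SD, n = 3 each), with a difference of -0.18 (SE 0.119). XR_832246.3, of the long non-coding RNA gene LOC105046337, had a difference of -0.47 (SE 0.229), at 43.1 TPM for the medium-yield library of Yangambi and 101 TPM for its low-yield library. In SP540 the medium- and low-yield libraries had 40.7 and 47.7 TPM, and in LaMe the order was reversed, at 44.1 and 43.1 TPM. The gap in Yangambi was the widest of the 3 populations. Without the medium-yield Yangambi library the difference was -0.18, and without the low-yield one it was -0.20. That of XR_003800501.1 was -0.08 without low-yield SP540, -0.10 without medium-yield SP540 and -0.27 without medium-yield LaMe. Neither was called.

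The members that varied most did so through 1 library. LOC114914381 (XR_003801436.1), a long non-coding RNA gene, had 865 TPM in medium-yield Yangambi and 5.61 to 28.6 TPM in the other 8. XR_832613.2, not paired, had 418 TPM there and 0.438 to 33.4 TPM in the others, with its next highest values in medium- and high-yield LaMe at 33.4 and 24.1 TPM. Its median over 9 libraries was 3.76 TPM. The difference of XR_832613.2 between medium and low yield was 4.25 (SE 1.29, unadjusted p = 0.0131), and without the medium-yield Yangambi library it was 2.52, so the size rests largely on that library.

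Rows that stood out in 1 library were counted by a measure chosen after these values were seen, at least 10 TPM and 5 times the next library. Medium-yield Yangambi had 26 such rows, low-yield Yangambi 37, high-yield LaMe 12 and every other library 2 to 5. Members were among them only in medium-yield Yangambi, where there were 2. XR_003799624.1 was also highest there, at 1018 TPM, but less apart from the next library at 393 TPM.

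**Figure D5:**
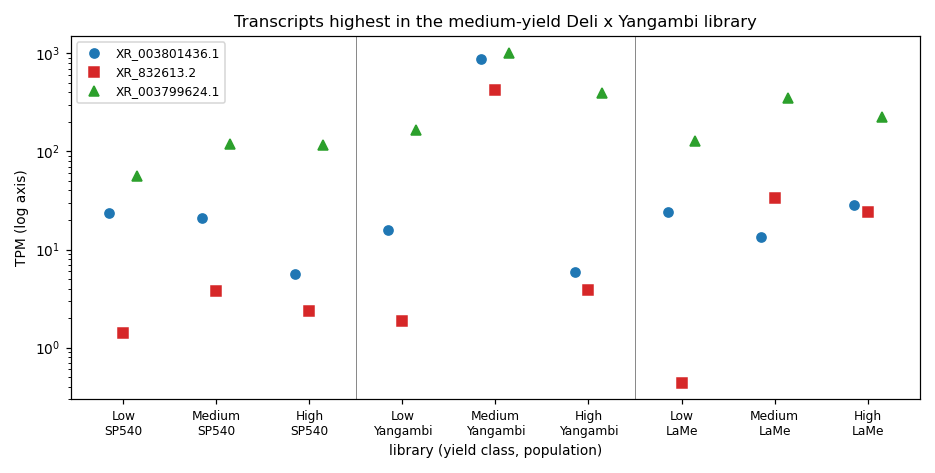
Transcripts highest in medium-yield Yangambi. The vertical axis is TPM on a log scale and the horizontal axis gives the 9 libraries by population and yield class. XR_003801436.1 and XR_832613.2 reach 865 and 418 TPM in that library and stay at or under 33.4 TPM elsewhere, while XR_003799624.1 is above 56 TPM in all 9.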

How the data were processed

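The authors deposited 1 table of TPM values per transcript row for the 9 libraries; every column sums to 1000000, although the table is named as counts. Per the labels' protocols, a Norgen total RNA kit and a TruSeq mRNA library kit were used. The submitters' processing notes name fastp, kallisto and DESeq2, without versions; the genome build is not given in the sources used here. Rows were paired with genes of the RefSeq table of assembly EG11 by accession without version (61.6% of rows). The version was the same in 1009 of the 31716 paired rows and in 1 of the 47 paired members. Most paired models are thus of another version than the rows quantified, and the assembly may also differ from the authors'. The RefSeq table therefore gave names, classes and neighbours only, and no sequences were printed.

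Rows reaching 1 TPM in 3 or more libraries (30576, of which 3555 non-coding) were fitted as log2(TPM + 1) with limma 3.58.1 in R 4.3.3 (trended, robust prior with statmod 1.5.0; 4 residual degrees of freedom), two-sided, with Benjamini-Hochberg adjustment over all rows and a threshold of 0.05. Differences on this scale understate changes of low rows. With 1 library per combination no interaction could be fitted. Named were the 12 highest members, those called, otherwise the 2 higher and 2 lower with the smallest p per comparison, the 5 lowest and 5 highest coefficients of variation, those next to the minimum and those of coding genes; others were named from class, neighbours or abundance after their values were seen. Members, lists and rules were chosen with earlier results of these data known. Other pseudocounts, filters, gene sums, scaling, terms and libraries were tried.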

Additional observations from a re-analysis of the deposited data

Results flagged for a closer look

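For each of the 80 members, on the log2(TPM + 1) scale, the gap between the highest or the lowest library and its nearest neighbour was set against the whole range over the 9 libraries. It passed Dixon's 95% critical share in 6 members, and chance alone flags about 1 in 20 sets of values. On the TPM scale, tried after seeing the data, 9 members passed, of which 3 passed on both scales (XR_002163869.1, XR_003801436.1 and XR_832246.3); the others were the 3 ribosomal RNA transcripts, XR_003802690.1, XR_003799624.1 and XR_832613.2. The 9 libraries are of different populations and yield classes.

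In 4 of the 6 the library apart was low-yield Yangambi. XR_002163869.1 had 192 TPM there and 234 to 254 TPM in the other 8 (gap share 0.713 on the log2 scale, as for those that follow). XR_832043.3 had 40.5 TPM there and 63.8 to 97.5 TPM elsewhere (0.515), and XR_002165717.2 had 43.1 TPM there and 50.4 to 58.2 TPM elsewhere (0.518). XR_832246.3 was highest there, at 101 TPM against 36.3 to 57.9 TPM (0.547). These members belong to long non-coding RNA and protein-coding genes. The level of XR_002163869.1 over that of XR_002165717.2 stayed between 4.10 and 4.93 in all 9 libraries. The flags of this pair are therefore not separate signs.

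XR_003801436.1 was highest in medium-yield Yangambi, at 865 TPM against 5.61 to 28.6 TPM (0.693). XR_002163486.2 was lowest in high-yield LaMe, at 32.7 TPM against 62.9 to 97.9 TPM (0.594). What lies behind these gaps was not tested.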

How the results depend on the processing

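XR_003799469.1 was called in both comparisons with LaMe and in the joint population test under every alternative run, with an adjusted p of 0.000258 to 0.0289 for Yangambi and 8.21e-05 to 0.0195 for SP540. Of 408 alternatives of the 24 differences tested for named members, none turned the sign, 398 stayed on the same side of the threshold and 10 passed it where the main value did not. Those were of XR_830406.2, XR_003798839.1 and XR_830544.2, with adjusted p-values down to 0.0102, 0.0298 and 0.0436. Outside those 24 differences, XR_830572.2 was called with gene sums (Yangambi and LaMe, 0.0489), and XR_830572.2 and XR_833984.2 in both comparisons without the yield term (0.0128 to 0.0293). Members called between Yangambi and LaMe were 2 with a filter of 5 TPM, 3 with gene sums and 6 without the yield term; between SP540 and LaMe 2 with that filter, with gene sums and with median-of-ratios scaling, and 5 without the yield term; in the joint population test 5 without the yield term. Leaving out 1 library kept 1 member called in each of these (1 to 1), and 0 in the others (0 to 0).

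Rows called between Yangambi and LaMe were 70 with a pseudocount of 0.1, 46 without a filter, 176 with gene sums, 389 without the yield term, 46 with only the 6 libraries compared and 18 to 78 when 1 library was left out, fewest without high-yield LaMe. In the same order of settings they were 48, 44, 129, 201, 31 and 22 to 52 between SP540 and LaMe, again fewest without high-yield LaMe. In that order they were 5, 0, 14, 47, 0 and 0 to 11 between SP540 and Yangambi, most without low-yield Yangambi, with 3 at a pseudocount of 5 and 0 with the filter of 5 TPM. In the joint population test they were 55, 46, 153 and 315, and 15 to 61 with 1 library left out, fewest without high-yield LaMe. For high against low yield, medium against low yield and any yield difference they were 0 to 1, the 1 arising without low-yield Yangambi. The causes were not tested. A minimum of 25 TPM would give 182 members, 100 TPM 37 and a median of 50 TPM 79. No paired analysis was possible because the labels give no replicate numbers to use as a block; the matching of libraries by yield class or population is already in the additive fit, and the fit without the yield term is the unmatched one. An alternative fit of the ribosomal RNA members without high-yield LaMe stands beside their values. Depth is unknown.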
